A study of Salmo salar with 8 samples.

Results

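Notch1-high nuclei of the Atlantic salmon gill were those single nuclei in which the 2 copies of the gene for the receptor Notch1, LOC106579992 and LOC106585423, together gave at least 2 UMIs and a level of at least 2000 CPM (UMIs of a gene per 1000000 UMIs of the nucleus), while the cotransporter gene nkcc1a gave 0. A UMI (unique molecular identifier) stands for 1 captured RNA molecule. The nuclei were thus chosen by the measured counts of these 3 genes. The rule held for 335 of 19709 nuclei in 8 samples (1.70%). In the study, juvenile salmon (Salmo salar) were taken through smoltification, the change that prepares a freshwater fish for the sea, and gill nuclei were isolated from 2 samples at each of 4 time points. As the labels give it, the T1 fish were parr kept in constant light, the T2 fish had then spent 8 weeks under a short photoperiod of 8 h light and 16 h darkness, the T3 fish had returned to constant light for a further 8 weeks, and the T4 fish were taken 24 h after the T3 stage fish were moved to seawater. The paper's methods place the T2 and T3 samplings fewer than 8 weeks into the short photoperiod and the return to light. All fish were of a single commercial strain raised in fresh water, and no transgene, deletion or drug was used. Nothing in the labels says whether the samples of a time point came from separate fish, so the p-values below measure the spread between samples, which may be in part technical.

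Notch receptors sit in the cell membrane and are activated by Delta and Jagged ligands on a neighbouring cell. Furin processes the receptor on its way to the surface, Fringe enzymes add sugars that change which ligand it answers to, and after ligand binding ADAM proteases and gamma-secretase release its intracellular domain, which joins RBPJ and Mastermind in the nucleus and switches on genes such as those of the Hes, Hey and NRARP families. In many epithelia the pathway sorts neighbouring cells into different fates, and in vessels it guides the branching of endothelial cells.

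The values that chose the nuclei are given first, as a description. The nuclei held between 2 and 19 Notch1 UMIs: 140 held 2, 88 held 3, 40 held 4, 31 held 5 and 36 held more. Both copies were seen in 197 nuclei (58.8%), LOC106579992 alone in 53 and LOC106585423 alone in 85. Reads of near-identical copies can be shared or lost in counting, so the split between the copies is uncertain. The level per nucleus had a median of 3752 CPM and a range of 2004 to 15244 CPM. Near the threshold, 51 Notch1-high nuclei lay between 2000 and 2500 CPM, and 67 nuclei with 2 or more UMIs and no nkcc1a lay just outside, between 1500 and 2000 CPM. The nkcc1a condition removed 46 of 381 nuclei that were otherwise past the threshold. Over all nuclei, 14.8% had an nkcc1a UMI.

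Most nuclei of the gill gave no Notch1 UMI at all, 17260 in number, and 1608 gave 1. A further 460 nuclei had 2 or more Notch1 UMIs but were too deep to reach 2000 CPM, with a median of 3422.5 UMIs each. The Notch1-high nuclei were shallower than the rest, with a median of 688 UMIs against 853 UMIs in all other nuclei. The rule itself favours shallow nuclei, because the same number of UMIs makes a higher CPM in them. This difference, and the low count of deep nuclei given next, were thus set in part by the rule. The Notch1-high nuclei held 25.3% of all Notch1 UMIs of the series. Only 2 of them reached 2500 detected genes, among 865 such nuclei in all, and 2 carried a barcode that also occurs in another library, among 49 such barcodes. No doublet caller was run, and any part of doublets in these nuclei was not tested.

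Levels in groups of nuclei are given below as CPM over the UMIs summed across the nuclei of that group in a sample. The sums of Notch1-high nuclei held 18297 to 54024 UMIs per sample, so that 1 UMI was worth 18.5 to 54.7 CPM in them. LOC106579992 lay at 1110 to 2210 CPM in Notch1-high nuclei (median 1574 CPM over 8 samples), against a median of 44.1 CPM in all other nuclei. LOC106585423 lay at 2039 to 2623 CPM (median 2365 CPM), against a median of 80.4 CPM. Both differences were fixed by the rule.

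To see whether the rule took 1 kind of nucleus, all nuclei were clustered without the 3 genes of the rule. The Notch1-high nuclei fell into 16 of 27 clusters, and 199 of them (59.4%) were in a single one, cluster 12. This cluster held 621 nuclei, of which 32.0% were Notch1-high, and its leading genes included PAPPA, cl10a, DHRS11 and prkag2a. It was given no cell type name, because its leading genes belong to none of the marker lists. A further 49 Notch1-high nuclei (14.6%) lay in cluster 5, with ccl28, KRT14 and ANGPTL7 among its leading genes. Then followed cluster 1 with 22 (mpx and the hemoglobin gene HBZ among its leading genes), cluster 22 with 20 (CALCRL, ramp2, PTPRB and ACE, genes of vascular endothelium) and cluster 14 with 10 (acta2, smooth muscle actin). These clusters differ in size. Against 1.70% of all nuclei, Notch1-high nuclei made up 9.76% of the 205 nuclei of cluster 22 and 3.57% of the 1373 of cluster 5. They made up 1.79% of the 558 nuclei of cluster 14 and 1.07% of the 2053 of cluster 1. The nuclei are therefore called by the rule, Notch1-high, and not by a cell type.

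Cluster 12 was wider than the Notch1 rule. Of its 621 nuclei, 293 had 2 or more Notch1 UMIs, 187 had 1 and 141 had none. An nkcc1a UMI was seen in 110 of the 621 (17.7%), against 14.8% of all nuclei of the series, at median depths of 694 and 849 UMIs. As a level over pooled UMIs, nkcc1a stood at 233 CPM in cluster 12. Clusters 7 (932 CPM), 11 (538 CPM) and 27 (280 CPM) were higher, and the rest lay at 14.9 to 178 CPM. Cluster 12 took in 36 of the 46 nuclei that the nkcc1a condition had removed. Notch1-high nuclei in cluster 12 had a median of 640 UMIs, against 833 UMIs for those in other clusters. Among nuclei with 3 or more Notch1 UMIs 121 of 195 (62.1%) were in cluster 12, and among those with 2 it was 78 of 140 (55.7%).

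**Figure D1:**
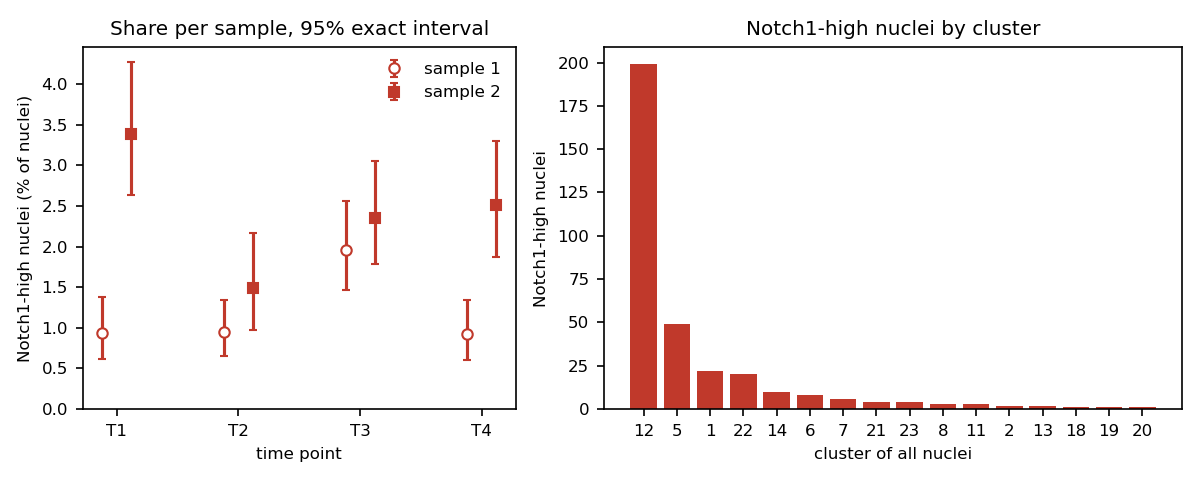
Left, the share of Notch1-high nuclei in each of the 8 samples (percent of nuclei, with 95% exact binomial intervals that cover counting error only), by time point. Right, the number of Notch1-high nuclei in each of the 16 clusters that held any: cluster 12 held 199 and cluster 5 held 49.

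The first question was which genes set the Notch1-high nuclei apart from all other nuclei. Notch1-high nuclei carried far more RNA of PAPPA, cl10a, DHRS11, SLC8A1, both lunatic fringe loci and neurl1. They carried less RNA of GPRC6A, PRSS27 and other genes. The named genes were picked by the size of their change, among genes with the same direction in all 8 samples. That shared direction was thus a condition of the choice and not a result. Among 2055 genes with enough counts, 251 were higher and 244 were lower in Notch1-high nuclei at an adjusted p under 0.01 in edgeR's quasi-likelihood test with the sample as a block, which is 12.2% and 11.9% of the genes tested. Of these, 147 were higher and 184 were lower in all 8 samples, and 84 were higher by more than 2 on the log2 scale. The median log2 fold change of all tested genes was -0.07. Without T3 sample 2 the counts fell to 160 higher and 158 lower. The split rests on the filter on low counts: with the planned filter at the depth of all sums, 271 genes were higher and 2152 lower, and of the same 2055 genes 104 were higher and 1029 lower.

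PAPPA, which encodes a secreted protease that cleaves binding proteins of insulin-like growth factors, had the largest rise among the genes picked for naming. Of the 251 higher genes, 118 have a name. Its level was 1640 and 2458 CPM in the Notch1-high nuclei of T1, 613 and 1780 CPM in those of T2, 476 and 1592 CPM in those of T3, and 581 and 703 CPM in those of T4, against 18.4 to 54.2 CPM in all other nuclei. Every Notch1-high value lay above every value of the other nuclei, and at each time point sample 2 lay above sample 1. The log2 fold change was 5.05 (SE 0.23, adjusted p = 1.21e-16 by edgeR). In nuclei thinned at random to 500 UMIs each, 39.8% of 322 Notch1-high nuclei had a PAPPA UMI, against 1.63% of 18612 other nuclei; unthinned, it was 46.9% against 3.23%, at median depths of 688 and 853 UMIs. In nuclei high in rhag, an ammonia channel gene, the unthinned share was 2.20% at a median of 905 UMIs. The part of free RNA in these shares was not tested.

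The other genes with large rises were separated as fully. cl10a reached 349 to 1582 CPM in Notch1-high nuclei (median 890 CPM), against 12.4 to 39.4 CPM in all other nuclei (log2 fold change 5.04, SE 0.25). DHRS11, a short-chain dehydrogenase, reached 388 to 2143 CPM (median 792 CPM) against 31.8 to 67.5 CPM (4.39, SE 0.23). SLC8A1, the sodium/calcium exchanger of the cell membrane, reached 544 to 3411 CPM (median 1104 CPM) against 83.7 to 150 CPM (3.51, SE 0.21). The groups did not overlap in any of these genes, which were picked for large rises in all samples. How many of all tested genes were separated in this way is not given. PAPPA, cl10a and DHRS11, like prkag2a, ESRRG and the MAGI3-like locus below, lay under the limit on counts, 84.02 CPM, in the other nuclei of every sample. They entered the test only through the Notch1-high sums, so their separation was largely set by the choice of genes. The same holds for the Notch pathway loci described below as not overlapping. prkag2a, a regulatory subunit of the energy-sensing kinase AMPK, reached 116 to 686 CPM in Notch1-high nuclei, against 9.63 to 21.5 CPM in the others (4.51, SE 0.35). ESRRG, an orphan nuclear receptor, reached 159 to 1258 CPM against 41.7 to 73.9 CPM (3.51, SE 0.22). A scaffold protein gene named after MAGI3 (LOC106567236) reached 349 to 951 CPM against 10.2 to 53.7 CPM (4.25, SE 0.28). The same lack of overlap held for sycp2l (log2 fold change 3.82, SE 0.32) and for GPRIN2 (3.70, SE 0.39). Both were likewise picked for large rises in all samples, and their levels in the other nuclei are not given. The 12 genes picked as the largest rises were these and 3 Notch pathway loci described below. All 12 were past the threshold in each alternative that tested them, the fits by cluster aside.

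Genes that were lower had few UMIs left in the Notch1-high sums. GPRC6A, a receptor for amino acids and cations, was at 0 to 54.7 CPM in Notch1-high nuclei (median 9.26 CPM), against 96.7 to 207 CPM in all other nuclei, without overlap (log2 fold change -3.30, SE 0.50). MOSPD2, a protein of contacts between membranes, was at 0 to 87.6 CPM (median 0) against 89.0 to 153 CPM (-2.94, SE 0.52). The kinase C gene prkcha was at 0 to 57.2 CPM (median 0) against 87.2 to 166 CPM (-2.73, SE 0.48). GPRC6A, MOSPD2 and prkcha met the limit on counts only through the other nuclei. A gene resembling the Xenopus zinc finger gene nuclear factor 7, brain (LOC106592219) was lower by 2.92 on the log2 scale and the protease gene PRSS27 by 2.76, with some overlap between the groups in both. Genes for a semaphorin-3ab-like guidance factor (-2.71), a HIP1R-like endocytic adaptor (-2.66) and a GRAMD1C-like sterol transporter (-2.56) did not overlap. They were picked for large falls in all samples, so this lack of overlap was largely set by the choice of genes. Whether they met the limit on counts only through the other nuclei is not given.

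**Figure D2:**
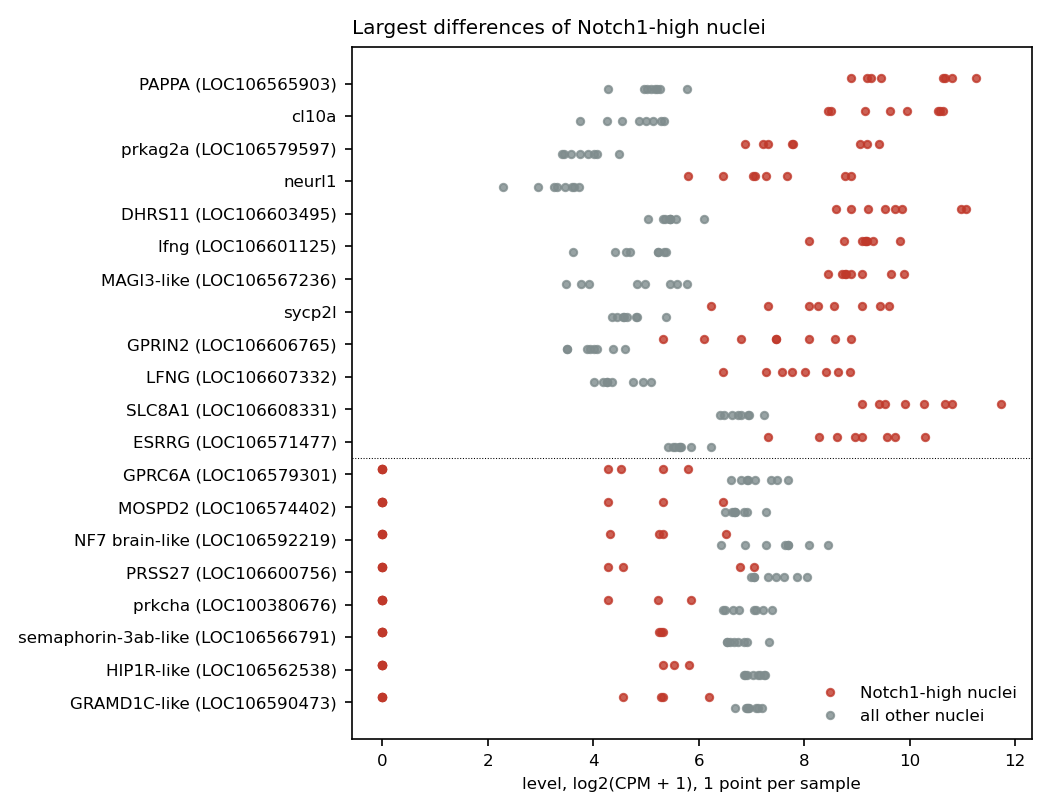
Levels of the 12 named genes picked as the largest rises (above the dotted line) and the 8 picked as the largest falls in Notch1-high nuclei, as log2(CPM + 1). There is 1 point per sample, with Notch1-high nuclei in red and all other nuclei in grey. Red points lie right of all grey points for each upper gene, and many red points lie at 0 for the lower genes; MAGI3-like, NF7 brain-like, HIP1R-like and GRAMD1C-like are short for the products named after these proteins.

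Within the Notch pathway the receptor side came first. Of the loci outside the rule, a further NOTCH1-like locus, LOC106601274, had 54.7 to 167 CPM in Notch1-high nuclei (median 115 CPM), against 20.5 to 54.6 CPM in all other nuclei. Notch1-high nuclei were higher in 8 of 8 samples, and the groups lay next to each other without overlap (log2 fold change 1.65, SE 0.32, adjusted p = 1.41e-04 by edgeR). How far reads of the copies in the rule were counted at this locus was not tested. It was past the threshold in 11 of 13 alternative fits, with an adjusted p of up to 0.091. notch2 (LOC106613830), the other receptor locus, had a median of 64.1 CPM against 104 CPM and did not pass the test (-0.62, SE 0.34).

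Few ligand loci had counts enough for the test. The 2 tested of 8, a delta-like protein C locus (0.10, SE 0.30) and dlc (-0.27, SE 0.25), did not pass it, and the list's median log2 fold change was -0.09. DLL4 (LOC106589077), the Delta ligand of sprouting vessels, reached the limit on counts in too few samples for the test. It had a median of 246 CPM in Notch1-high nuclei (19.1 to 545 CPM), against 58.6 CPM in the others, and was at 54.8 CPM in those of cluster 12 and at 2019 CPM in the 20 nuclei of cluster 22. A jagged-1b-like locus, LOC106589996, had a median of 110 CPM against 14.6 CPM and was likewise untested.

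Among the tested Notch pathway loci, the largest differences were in enzymes that act on receptor and ligand. Of 24 loci for processing and modification, 8 were tested, 3 were higher and 1 was lower, against 12.2% and 11.9% of all genes, with a median log2 fold change of 0.37. Both loci of lunatic fringe, which lengthens a sugar on the Notch receptor and thereby favours Delta over Jagged, were among the 3. lfng (LOC106601125) reached 271 to 907 CPM in Notch1-high nuclei (median 572 CPM), against 11.3 to 40.9 CPM in all other nuclei (4.30, SE 0.24, adjusted p = 7.53e-15 by edgeR). LFNG (LOC106607332) reached 87.6 to 464 CPM (median 239 CPM) against 15.1 to 33.0 CPM (3.61, SE 0.31). Neither overlapped. neurl1, a Neuralized ubiquitin ligase that drives uptake of Delta in the signalling cell, reached 54.7 to 472 CPM against 3.89 to 12.3 CPM (4.46, SE 0.41).

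The second Neuralized locus, NEURL1 (LOC106586787), went the other way without passing the threshold, at a median of 64.7 CPM in Notch1-high nuclei against 129 CPM (-1.11, SE 0.34, adjusted p = 0.012 by edgeR). A furin-1-like locus, LOC106562248, fell by 1.57 on the log2 scale (SE 0.33), at a median of 64.3 CPM in Notch1-high nuclei against 164 CPM in the others. The second furin-1-like locus (-0.75, SE 0.31), the protease ADAM17 (-0.12, SE 0.31) and the ligase lnx1, which degrades the Notch inhibitor Numb (0.86, SE 0.30), did not pass. Among nuclear partners 1 of 10 was tested, the coactivator ep300b, with a log2 fold change of 0.62 (SE 0.26) short of the threshold. rbpj and maml3 gave no UMI in Notch1-high nuclei.

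Of 15 loci for known Notch targets, 6 were tested, 2 were higher and 2 were lower, against the same 12.2% and 11.9% of all genes, and the median log2 fold change was 0.15. Both higher loci encode NRARP, a small ankyrin protein that is induced by Notch and limits it. NRARP (LOC106568448) had 328 to 726 CPM in Notch1-high nuclei (median 515 CPM), against 42.3 to 75.1 CPM in all other nuclei, with no overlap (3.00, SE 0.18, adjusted p = 3.77e-14 by edgeR). nrarpa (LOC106561514) had 54.7 to 376 CPM (median 211 CPM) against 48.2 to 70.9 CPM and was higher in 7 of 8 samples (2.01, SE 0.27). The lower loci were CCND1 (LOC106562055; -1.07, SE 0.24) and ccnd1 (-1.22, SE 0.36; past the threshold in 6 of 14 alternatives), cyclins of the G1 phase. Neither gata3 (-0.05, SE 0.14) nor GATA3 (0.35, SE 0.27) passed. Summed over the target list, the level was 1421 to 2764 CPM in Notch1-high nuclei against 1492 to 1892 CPM, and higher in 7 of 8 samples. No Hes or Hey locus of the list was tested, and heyl gave no UMI in Notch1-high nuclei. A HES-5-like repressor gene, LOC106582964, reached the limit on counts in too few samples for the test. Its median was 110 CPM in Notch1-high nuclei against 1.90 CPM in the others, and it gave no UMI in nkcc1a-high or rhag-high nuclei.

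**Figure D3:**
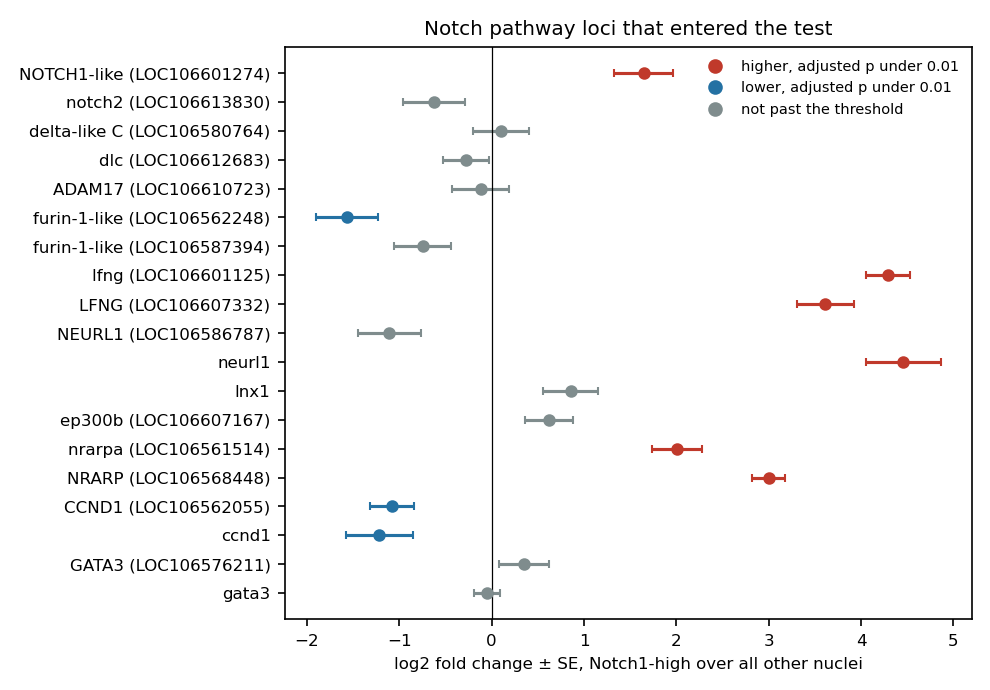
Log2 fold change with its SE (bars), Notch1-high nuclei over all other nuclei, for the Notch pathway loci tested, with receptors at the top, then ligands, processing enzymes, the nuclear partner and targets. The loci past the threshold upward were the NOTCH1-like locus, both lunatic fringe loci, neurl1 and both NRARP loci.

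Marker lists of gill cell types were read in the same test. Of 10 tested ionocyte loci (ionocytes are the mitochondrion-rich cells that move salt), 1 was higher (10%) and 2 were lower (20%), near the 12.2% and 11.9% of all genes. ATP1B1 (LOC106575754), an ion pump subunit, was the higher one, with a median of 1248 CPM in Notch1-high nuclei against 908 CPM (0.49, SE 0.13). It was past the threshold in 8 of 16 alternatives, the fits by cluster aside, and the sign turned with 3 alternatives, to -0.33 with the wider filter, -0.39 without a filter and -0.40 outside cluster 12. The sodium/hydrogen exchanger SLC9A3 (-1.23, SE 0.23) and the anion exchanger slc4a1b (-0.90, SE 0.25) were lower. slc4a1b was past the threshold in 7 of 15 alternatives, the fits by cluster aside (adjusted p up to 0.0518 by edgeR or DESeq2). Summed over the list, ionocyte RNA stood at 3850 to 4688 CPM in Notch1-high nuclei, against 3039 to 4643 CPM in all other nuclei, and was higher in Notch1-high nuclei in 6 of 8 samples. The pooled list sum was 5559 CPM in the Notch1-high nuclei of cluster 12 and 3161 CPM in those elsewhere. With only those of cluster 12, ATP1B1 LOC106575754 (0.74), SLC4A4 (1.38) and gcm2 LOC106590332 (0.94) were higher at an adjusted p under 0.01 in edgeR. SLC9A3 (-1.59), slc4a1b (-1.44) and foxi3a (-1.58) were lower in that fit.

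Loci of epithelial surface and of connective tissue were read against the same 11.9% lower and 12.2% higher of all genes. Of 25 tested loci of epithelial junctions and surface, 9 were lower (36%) and 1 was higher (4%), with a median log2 fold change of -0.60 against -0.07 over all genes; the 9 were 3 claudin-4 loci, 4 envoplakin loci, KRT8 (LOC106583604) and the ammonia channel RHCG (LOC106587392), which lay at 381 to 1421 CPM in Notch1-high nuclei against 1718 to 3824 CPM (-1.77, SE 0.15). The only higher locus was another copy, rhcg, at a median of 1221 CPM against 433 CPM (1.35, SE 0.18, and -0.34 outside cluster 12). The gene ocln was tested and not called. Over the alternatives it lay at -1.35 to -0.23 and was past the threshold in 2 of 15. The paper defined its neuroepithelial cluster by Notch1, Occludin and Hes1 together with enriched gene ontology terms. Of 12 tested loci of pillar cells and matrix 9 were lower (75%) and none was higher, with a median log2 fold change of -1.09. The list sum was 872 to 10465 CPM in Notch1-high nuclei, against 4380 to 18183 CPM. Against nkcc1a-high nuclei alone neither list was mostly lower, as given below. KRT14 (LOC106564957; -0.53, SE 0.13; past the threshold in 11 of 16 alternatives), a keratin of basal cells, and cd74a (-0.82, SE 0.14), a chaperone of antigen presentation, were the only called loci of the basal and myeloid lists.

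The remaining lists gave few tests and no call. None of 11 tested hemoglobin and erythrocyte loci passed, with list sums of 3065 to 13117 CPM in Notch1-high nuclei and 4011 to 12957 CPM in the others. The vascular list had 1 tested locus, not called, and list sums of 362 to 929 CPM against 273 to 892 CPM. No locus of the neuroepithelial list, cells that sense oxygen, or of the T cell list was tested. The neuroepithelial sum had a median of 0 CPM in Notch1-high nuclei against 19.1 CPM, with TPH1, tph1a, sv2bb, scg3, ret, ascl1a and elavl4 at 0. It reached 43.8 CPM in T2 sample 1, 38.8 CPM in T4 sample 1 and 18.5 CPM in T4 sample 2. A level of 19.1 CPM is near or below the worth of a single UMI in these sums. The counts therefore cannot show whether such RNA was absent. Of the cell cycle list only top2a was tested (1.07, SE 0.35, adjusted p = 0.018 by edgeR), with a median of 112 CPM against 57.9 CPM. The part of these other cell types in the differences above was not tested.

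The leading genes divided the Notch1-high nuclei along the cluster border. These values are descriptions, since the clusters were built from the same genes. Pooled over nuclei, PAPPA stood at 2430 CPM in the Notch1-high nuclei of cluster 12 and at 90.1 CPM in the remaining 136. lfng stood at 1041 CPM and 125 CPM, SLC8A1 at 2752 CPM and 104 CPM, and GPRIN2 at 411 CPM in cluster 12 while it was listed at 0 elsewhere. All 12 leading genes were higher inside the cluster. The NRARP loci were spread more widely: NRARP stood at 780 CPM in cluster 12 and at 298 CPM elsewhere, with 299 CPM in cluster 5, 237 CPM in cluster 22 and 321 CPM in cluster 1.

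The Notch1-high nuclei outside cluster 12 were then fitted against all other nuclei, which still held the nuclei of cluster 12 that were not Notch1-high. In this fit edgeR called 61 genes higher and 144 lower of 1695. Of the 251 genes called higher before, only 99 had counts enough to be tested here. Of those 99, 83 had a positive log2 fold change and 32 were among the 61. NRARP remained past the threshold there (2.12) and so did nrarpa (1.30), while SLC8A1 came to 0.03 (adjusted p = 0.98 by edgeR) and ESRRG to 1.31 (adjusted p = 0.0101 by edgeR). PAPPA, cl10a, DHRS11, lfng, LFNG and neurl1 had too few counts outside the cluster for the test. With only the Notch1-high nuclei of cluster 12 against the same other nuclei, 301 genes were called higher and 521 lower of 2133. Of the 251 genes, 227 were tested in that fit, 226 had a positive log2 fold change and 191 were among the 301. Several loci turned with the cluster. In cluster 12 a delta-like protein C locus came to -2.20 and CLDN4 (LOC106612824) to -1.46, where over all Notch1-high nuclei they were at 0.10 and 0.41 without passing the test. DLL4, rhag and the vascular list were higher outside the cluster: the list sum was 233 CPM in cluster 12 and 1144 CPM elsewhere.

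Inside the cluster, leading genes were also found in nuclei outside the Notch1 rule, though at lower levels for those compared. In the 141 nuclei of cluster 12 without a Notch1 UMI, PAPPA stood at 1155 CPM, cl10a at 894 CPM, SLC8A1 at 1486 CPM and lfng at 422 CPM. PAPPA, SLC8A1 and lfng were thus lower there than in the Notch1-high nuclei of cluster 12, whose levels are given above. In the 46 nuclei removed for their nkcc1a UMIs, PAPPA stood at 859 CPM, SLC8A1 at 1703 CPM and lfng at 614 CPM. The HES-5-like gene stood at 144 CPM in the Notch1-high nuclei of cluster 12 and at 14.1 CPM in its nuclei without a Notch1 UMI, and NRARP at 780 CPM and 380 CPM. Just inside the threshold, at 2000 to 2500 CPM of Notch1, PAPPA stood at 567 CPM, and just outside it at 236 CPM.

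**Figure D4:**
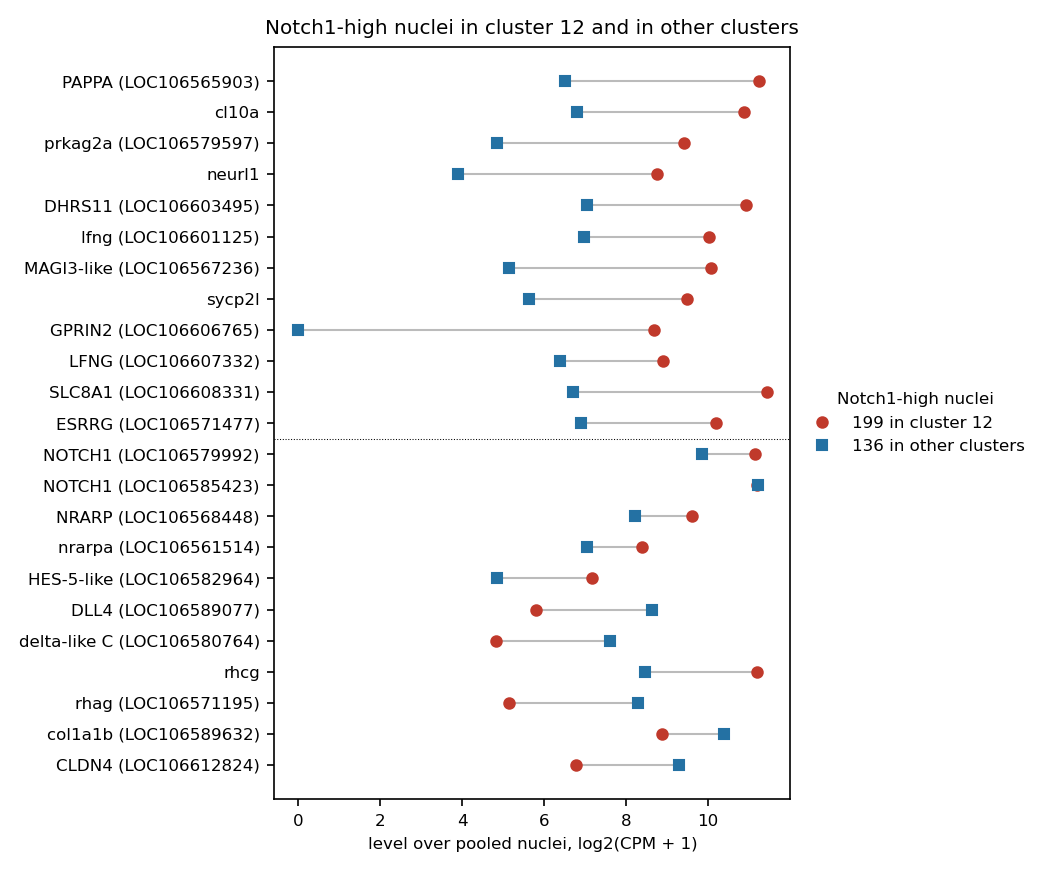
Levels over pooled nuclei, as log2(CPM + 1), of the 199 Notch1-high nuclei in cluster 12 (red circles) and the 136 in other clusters (blue squares), for the 12 leading genes above the dotted line and for Notch, vascular and epithelial genes below it. The 12 leading genes are all higher in cluster 12, while DLL4, the delta-like protein C locus (delta-like C), rhag, col1a1b and CLDN4 are higher in the other clusters and the 2 Notch1 copies, from the rule, are within a factor of 3; no error is shown, since each point is a single pooled value.

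The nkcc1a condition places Notch1-high nuclei beside the nuclei high in nkcc1a, the sodium-potassium-chloride cotransporter of salt-moving ionocytes. Those were 330 nuclei with at least 2 UMIs and 2000 CPM of nkcc1a and no Notch1 UMI. T2 sample 2 had 4 of them and was left out, so that 7 samples entered. Of 1421 genes, 171 were higher (12%) and 273 lower (19.2%) in Notch1-high nuclei at an adjusted p under 0.01 in edgeR; DESeq2 called 93 and 193. Without T3 sample 2 the total was 276 genes, against 444 with it.

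Higher in Notch1-high nuclei were again prkag2a, PAPPA, cl10a and lfng, with PAPPA at a median of 26.9 CPM and lfng at 21.3 CPM in nkcc1a-high nuclei (5.36 and 4.55 on the log2 scale). LIMCH1, an actin-binding protein, gave 69 UMIs in Notch1-high nuclei and none in nkcc1a-high nuclei, which is at least 26.4-fold higher with 3 UMIs taken for the whole group at 0. NRARP rose as well, with a median of 515 CPM in Notch1-high nuclei against 16.5 CPM (4.53). Of 3 tested loci for Notch processing 2 were higher and 1, NEURL1 (LOC106586787), was lower, at -3.03 to -2.30 over the alternatives. Of 2 tested ligand loci 1 was lower, dll4 (LOC106608273), at -3.05 to -2.46. The other, DLL4 (LOC106589077), was not called in the main fit and lay at -1.38 to -0.52 over the alternatives. Lower were NEDD4L, a ubiquitin ligase (LOC106562216; -4.95, SE 0.79), syndig1 (-4.61, SE 0.55), CSDC2 (-4.10, SE 0.45), the calcium-dependent kinase CAMK1D (-4.09, SE 0.65) and a Sgk2-like kinase (-4.03, SE 0.35). Of 10 tested ionocyte loci 8 were lower and 1, the bicarbonate cotransporter SLC4A4 (1.76), was higher, with a median of -2.03 over the 10 loci. The reference was chosen by nkcc1a, itself an ionocyte gene, so this direction was largely set by the choice of groups. SLC9A3 had a median of 271 CPM in Notch1-high nuclei against 3680 CPM. Of 10 tested pillar and matrix loci 5 were higher (50%) and 0 were lower in Notch1-high nuclei. Of 16 tested loci of epithelial junctions and surface 2 were higher (12.5%), 1 was lower (6.25%) and 13 were not called. The low levels of these lists against all other nuclei were thus not seen against nkcc1a-high nuclei. The MAGI3-like locus, with 225 CPM in nkcc1a-high nuclei, and ESRRG, with 116 CPM, were closer to the Notch1-high level than PAPPA was (1.30 and 2.01 on the log2 scale).

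The nuclei high in rhag, 273 in number and chosen in the same way with no UMI of Notch1 or nkcc1a, differed more. Of 1174 genes 361 were higher (30.7%) and 269 lower (22.9%) in Notch1-high nuclei over 8 samples. The largest rises among genes picked for naming were cl10a (6.89), the MAGI3-like locus (6.21), sycp2l (6.20), PAPPA (6.10) and nedd4l (5.35). The falls picked in the same way included matrix genes. The collagen gene COL6A2 and the glucuronosyltransferase UGT1A1 gave 0 UMIs in Notch1-high nuclei against 74 and 73 UMIs in rhag-high nuclei, at least 19.4-fold and 19.2-fold lower with 3 UMIs taken for the whole group at 0. The matrix glycoproteins tnn (-5.70, SE 0.48) and EMILIN1 (-4.76, SE 0.43) and the phospholipase plcb4 (-4.95, SE 0.72) were also lower. Of 18 tested pillar and matrix loci 16 were lower, as were all 4 tested vascular loci and all 12 tested erythrocyte loci. Of 6 tested ionocyte loci 5 were higher, and of 16 tested loci of epithelial junctions and surface 7 were higher and 1 was lower. The reference was chosen by rhag, itself on the vascular list, so the vascular direction was largely set by the choice of groups. DLL4 was higher in Notch1-high nuclei than in rhag-high ones (2.19), at medians of 246 CPM and 48.4 CPM. The comparisons with all other, nkcc1a-high and rhag-high nuclei share the same Notch1-high sums, and they are given side by side only.

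The share of Notch1-high nuclei was then followed over smoltification. At T1 it was 0.941% (26 of 2763 nuclei) in sample 1 and 3.38% (67 of 1982) in sample 2, and at T2 0.949% (32 of 3373) and 1.49% (26 of 1748). At T3 it was 1.96% (52 of 2659) and 2.36% (56 of 2375), and at T4 0.921% (26 of 2823) and 2.52% (50 of 1986). Sample 2 lay above sample 1 at all 4 time points, and the T1 and T4 samples differed from each other by more than the time point means did. The exact 95% binomial interval was 0.616% to 1.38% for T1 sample 1 and 2.63% to 4.27% for T1 sample 2, which covers counting error only. The T1 mean was 2.16% ± 1.72, the T2 mean 1.22% ± 0.38, the T3 mean 2.16% ± 0.28 and the T4 mean 1.72% ± 1.13 (SD, n = 2 each).

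The test over all 4 time points did not pass. An exact permutation test over the 2520 arrangements of the 8 samples gave p = 0.752 (the smallest possible is 0.00952), and the slope of the logit share was 0.0109 per time point (two-sided exact permutation p = 0.95). The samples of T3 both lay above those of T2, a difference of 0.939 percentage points for which p = 0.333 in an exact test, the smallest that 2 against 2 samples allow. The exact p was 1 for T2 against T1, T3 against T1 and T4 against T3, and T4 was not tested against T1 or T2. Depth bears on this share directly, because the rule needs 2 UMIs: with each nucleus thinned to 500 UMIs and 1 Notch1 UMI required, the mean shares were 6.39%, 5.12%, 6.35% and 7.27% from T1 to T4 (exact permutation p = 0.4). The part of Notch1-high nuclei that lay in cluster 12 also varied by sample, from 38.5% in T3 sample 1 to 80.6% in T1 sample 2.

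Genes of Notch1-high nuclei were compared between time points with all 8 samples in a single fit of 687 genes, which asks whether these nuclei changed as the gill was prepared for the sea. Most genes did not pass. T2 against T1 gave no call in edgeR (27 genes at an unadjusted p under 0.05, none called by DESeq2), nor did T3 against T2 (54 genes, none by DESeq2) or T4 against T3, the seawater step (12 genes, none by DESeq2). T3 against T1 gave 2 genes higher (0.291% of those tested) and none lower, with 61 genes at an unadjusted p under 0.05 and none called by DESeq2. Without T1 sample 2 no gene was called in T3 against T1, and without T1 sample 1 or T3 sample 1 only 1 was; T3 against T2 gave up to 6 calls with a sample left out, the 6 without T4 sample 1. Of 10 tested pillar and matrix loci 1 was higher at T3 than at T1.

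The 2 genes were LOC106562679, which no table used here names, and COL4A1 (LOC106577877), a collagen IV chain of basement membrane whose product is annotated as alpha-5(IV)-like. In Notch1-high nuclei LOC106562679 was at 109 and 0 CPM in the T1 samples, 87.6 and 0 CPM in those of T2, 1676 and 1946 CPM in those of T3 and 2752 and 796 CPM in those of T4. The T3 and T4 samples lay above all T1 and T2 samples (T3 against T1 log2 fold change 5.79, SE 0.94, adjusted p = 0.00778 by edgeR). COL4A1 was at 0 and 76.2 CPM in T1 samples, 350 and 109 CPM in T2, 929 and 730 CPM in T3 and 775 and 629 CPM in T4 samples, with the same order of samples (3.86, SE 0.66, adjusted p = 0.00778 by edgeR). In all other nuclei the levels moved with them: LOC106562679 had 6407 and 5109 CPM at T3 against 619 and 436 CPM at T1, and COL4A1 had 1431 and 968 CPM against 590 and 614 CPM. LOC106562679 was the first leading gene of cluster 2, which held 1805 nuclei, 2 of them Notch1-high. A COL4A1 locus was among the leading genes of cluster 6, with 1366 nuclei, 8 of them Notch1-high. Both LOC106562679 and COL4A1 were lower in Notch1-high nuclei than in the rest of the same sample at T1 and T3. The part of free RNA from other nuclei in these levels was not tested. LOC106562679 passed in 12 of 15 alternatives (adjusted p up to 0.243 by edgeR or DESeq2) and COL4A1 in 8 of 15 (up to 0.139); with only the nuclei of cluster 12, the values were 5.54 (adjusted p = 0.00125 by edgeR) and 4.22 (0.139).

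With the sample number as a block, 3 genes were higher and 3 lower at T3 than at T1 (0.437% each). The added higher gene was LOC106581733 (4.59, SE 0.98, adjusted p = 0.00159 by edgeR), with 476 and 420 CPM at T3 against 0 and 19.1 CPM at T1. The lower genes were 3 that Notch1-high nuclei carried in excess. SLC8A1 was at 1640 and 3411 CPM in T1 samples, 744 and 1780 CPM in T2, 544 and 1238 CPM in T3 and 969 and 685 CPM in T4 samples (T3 against T1 -1.50, SE 0.36, adjusted p = 0.00699 by edgeR with the block, 0.425 without it). rhcg was at 2186 and 2649 CPM, 1358 and 2579 CPM, 566 and 1083 CPM, and 310 and 537 CPM from T1 to T4 (-1.53, SE 0.36, adjusted p = 0.00459 with the block, 0.336 without it). The unnamed LOC106578304 was at 90.6 and 199 CPM at T3 and at 710 and 800 CPM at T1 (-2.32, SE 0.52, adjusted p = 0.00252 with the block, 0.302 without it). For each of them both T3 samples lay below both T1 samples. With only the nuclei of cluster 12 and the block the log2 fold changes were -1.17 for SLC8A1 (adjusted p = 0.141 by edgeR), -1.32 for rhcg (0.0829) and -2.47 for LOC106578304 (0.0293), of like size but not past the threshold. The cluster 12 part of the Notch1-high nuclei, where all 3 had their higher level, was 38.5% and 73.2% at T3 and 65.4% and 80.6% at T1.

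The block moved the other comparisons as well. At T2 apoeb, an apolipoprotein, was called higher than at T1 (1.45, adjusted p = 0.00407 by edgeR; 0.146% of genes), but with only the nuclei of cluster 12 and the block it came to -0.21 (adjusted p = 0.994). T3 against T2 gave 7 genes higher (1.02%) and 4 lower (0.582%): the higher ones were 4 hemoglobin loci, LOC106562679, COL1A2 and col1a1b, the genes of collagen I, and the lower ones were the unnamed LOC106561182, LOC106573482, LOC106588087 and LOC106591222. The marker lists of these higher genes moved alike in the rest of the gill. The erythrocyte sum averaged 11124 CPM at T3 against 3204 CPM at T2 in Notch1-high nuclei, and 12057 CPM against 4509 CPM in all other nuclei. The pillar and matrix sum averaged 6897 CPM at T3 against 1903 CPM at T2 in Notch1-high nuclei, and 14156 CPM against 5534 CPM in all other nuclei. The part of RNA from these other cells in the calls was not tested. T4 against T3 gave none, with 42 genes at an unadjusted p under 0.05 in edgeR with the block. Notch pathway genes were not called between time points: NRARP was at 521 and 509 CPM at T3 and at 328 and 705 CPM at T1 in Notch1-high nuclei (log2 fold change -0.11, SE 0.47), and lfng at 430 and 907 CPM at T3 and at 547 and 629 CPM at T1 (0.18, SE 0.44), neither past the test.

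**Figure D5:**
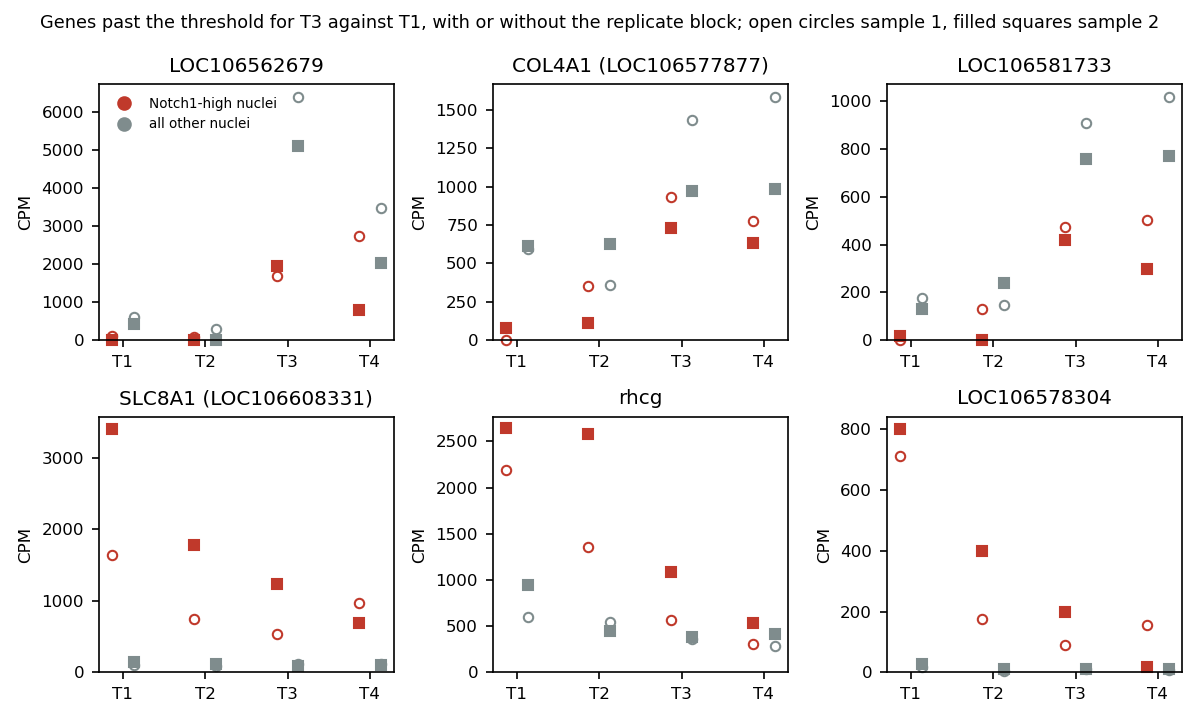
Level (CPM) of 6 genes by time point in Notch1-high nuclei (red) and all other nuclei (grey), with open circles for sample 1 and filled squares for sample 2. The upper genes are higher at T3 than at T1 in both groups of nuclei, and the lower genes are lower at T3 than at T1 in Notch1-high nuclei.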

How the data were processed

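Gill nuclei of 8 samples (2 each at T1 to T4) were sequenced on the 10x 3′ v3 platform. The deposited values are raw UMI counts per gene and nucleus, which the authors made with Cell Ranger from the ICSASG_v2 genome and NCBI Salmo salar Annotation Release 100; per the labels the version is given differently in 2 places, and the processing notes name 3.0.1. All 19709 deposited nuclei were used, with 1748 to 3373 nuclei and 2770081 to 4383507 UMIs per sample; 18844 have fewer than 2500 detected genes. No doublets were removed. Counting error alone is covered by the binomial intervals.

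Members, lists and tests were chosen with earlier results of these data known. UMIs were summed per sample and group and tested in edgeR 4.0.16 (TMM, quasi-likelihood, R 4.3.3), with DESeq2 1.42.0 as an alternative, Benjamini-Hochberg adjustment over all tested genes and a threshold of 0.01; the 3 genes of the rule were left out. The planned filter (edgeR's filterByExpr, minimum 10) gave false lower calls on simulated data, because Notch1-high sums are far smaller than the sums of the other nuclei, and on the real counts it called 271 genes higher and 2152 lower of 21964. It was replaced after those calls had been seen: a gene had to reach 84.02 CPM, 3 UMIs at the median member sum of 35704 UMIs, in at least 3 of every 4 samples of either group. Minimums of 10, 5 and 3 UMIs were tried, with simulated and real calls in view. The planned filter stayed in the other comparisons, whose sums are of like depth.

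Shares were tested by exact permutation in scipy 1.17.1. Clusters came from scanpy 1.11.5 with leidenalg 0.10.2 (2000 variable genes, 30 components, 15 neighbours, resolution 1). Genes were named by rule: the 12 largest rises and 8 largest falls against all other nuclei with a name, 100 CPM and 1 direction in all samples, the 5 largest each way in the other group comparisons, and all loci of the fixed lists; the few further genes were chosen after their values were seen. Names came from the files' identifiers, a RefSeq gene table of another build and the paper's tables. No sequences were printed. Loci of 1 listed gene are not reported here and enter no list count or sum. Same-numbered samples deviated together in all 6 pairs of time points (correlations 0.158 to 0.392 over 687 genes). The main fits between time points used no block, and the number was a block in an alternative. The cluster 12 part of the Notch1-high nuclei was larger in sample 2 at every time point, and its share in these correlations was not tested. The labels do not state what the number marks.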

Additional observations from a re-analysis of the deposited data

How the results depend on the processing

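Alternatives changed 1 choice at a time, apart from cluster 12 with the replicate block and the thinned share, which also took 1 Notch1 UMI in place of 2; those on the main cluster, on nuclei with fewer than 2500 genes and on the 5 and 10 UMI filters were added after seeing the data. Against all other nuclei, 495 calls became 2387 without a filter (245 higher, 2142 lower of 34511) and 2423 with the planned filter (271 higher, 2152 lower). Over the 2055 genes these fits moved the median log2 fold change by -0.87 and -0.81, from -0.07 to -0.93 and -0.88, and the higher share of calls from 50.7% to 10.3% and 11.2%, so small rises rest on the filter. The count was 313 with a minimum of 5 UMIs, 137 with 10 UMIs, and 318 to 454 with 1 sample left out. It was 205 (61 higher, 144 lower) with only the Notch1-high nuclei outside cluster 12. With only those inside it, the count was 822 (301 higher, 521 lower). DESeq2 kept 207 of the 251 higher genes. Reversed log2 values were ATP1B1 LOC100136391 (-0.53) and LOC106575754 (-0.39) without a filter and LOC106575754 (-0.33) with the planned one; ATP1B1 LOC106575754 (-0.40), SLC4A4 (-1.96) and rhcg (-0.34) outside cluster 12; and delta-like protein C (-2.20), foxi3a (-1.58), CLDN4 LOC106612824 (-1.46) and KRT8 LOC106566973 (-1.22) inside it.

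Against nkcc1a-high nuclei 444 calls became 286 with DESeq2, 272 with a minimum of 3 Notch1 UMIs and 276 to 459 with a sample left out. Against rhag-high nuclei 630 became 955 without a filter, 378 with nuclei of 500 to 2000 UMIs and 544 to 673 with a sample left out. With the replicate block T2 against T1 gave 1 call, T3 against T1 gave 6 and T3 against T2 gave 11. T3 against T1 gave 0 with DESeq2 and with 3 Notch1 UMIs, 1 in cluster 12 with or without the block, and 0 to 3 with a sample left out. T3 against T2 gave 1 at a threshold of 0.05, 7 without a filter, 4 in cluster 12 with the replicate block, and 0 to 6 with a sample left out. The share kept its verdict in every setting: with 1 sample left out the exact permutation p was 0.4095 to 0.9333 and the slope -0.1117 to 0.1864, and the replicate block gave p = 0.667. Cluster settings put 58.8% to 59.7% of Notch1-high nuclei in 1 cluster. At 26 to 67 nuclei per sample, most genes were too low for any test.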
